A study of Mus musculus with 2 samples.

Results

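Chemokine ligands are secreted or membrane-bound proteins that guide leukocytes, and 9 of their genes were followed here across the cells of the mouse spleen. The genes were Ccl22, Ccl17, Ccl5, Ccl3, Ccl4, Ccl6, Ccl9, Cxcl9 and Cxcl16, taken by name as 9 of the 27032 genes in each count table. Earlier results of these data were known when they were chosen. The cells came from 2 samples of CD11c+ spleen cells of Wild-Type mice, called WT replicates 1 and 2, with no treatment, time or age in the labels. All mice were adults on a C57BL/6J background per the methods. Cells were enriched with CD11c beads, marked with sample tags and captured on the BD Rhapsody system, where each transcript carries a unique molecular identifier (UMI) that lets amplified copies be counted once. The labels and methods do not state how many mice went into a sample, so the spread between both samples may be partly technical, and p-values measure only that spread.

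Replicate 1 held 3308 cells and 46953398 UMIs, and replicate 2 held 3085 cells and 43137746 UMIs. The median cell held 11869.5 and 11241 UMIs. Cells were sorted into 9 classes by UMI counts of genes that are no ligands of the list, in a fixed order with the first match kept, which placed 4922 of 6393 cells. Macrophages (358 and 161 cells in replicates 1 and 2) held at least 20 UMIs of Vcam1 and 5 of C1qb, and mature DCs (147 and 187) at least 2 of Ccr7 and 1 of Fscn1. Type 1 conventional DCs (cDC1s, 797 and 710) held at least 2 of Clec9a and 1 of Xcr1, and plasmacytoid DCs (pDCs, 14 and 20) at least 3 of Siglech and 1 of Ccr9. B cells (74 and 201) held at least 3 of Cd79a, T cells (50 and 187) at least 2 of Cd3e and NK cells (39 and 36) at least 1 of Ncr1. DCIR2 cDC2s (565 and 466) held at least 2 of Clec4a4, which encodes DCIR2, and CLEC10A cDC2s (494 and 416) at least 2 of Clec10a and Cd209a together. All markers checked were highest in their own class for macrophages, mature DCs, B, T and NK cells, and 5 of 6 for cDC1s and 5 of 7 for pDCs. Only 1 of 4 markers of DCIR2 cDC2s and 2 of 4 of CLEC10A cDC2s were highest in the class of that name. Of the DCIR2 cDC2s, 210 and 159 cells also passed the CLEC10A gate, and 10 of 14 and 13 of 20 pDCs passed another gate. Levels are given as CPM, the UMIs of a gene per 1000000 UMIs summed over a class within a sample, and were not compared between genes.

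CCL22 and CCL17 bind CCR4, which is carried by regulatory and helper T cells, and both are known products of activated DCs. CCL5, CCL3 and CCL4 are inflammatory ligands that attract T cells, NK cells and monocytes, with CCR1 among the receptors of CCL5 and CCL3 and CCR3 among those of CCL5. CCL6 and CCL9 act on CCR1 of myeloid cells, CXCL9 is induced by interferon-γ and attracts T and NK cells through CXCR3, and CXCL16 is a membrane-anchored ligand of CXCR6 that the proteases ADAM10 and ADAM17 release from the surface.

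The genes lie in a few places of the GRCm38 genome. Ccl22 and Ccl17 are neighbours on chromosome 8, at chr8:94745590-94751699 and chr8:94810453-94812036, both on the plus strand. Ccl5, Ccl9, Ccl6, Ccl3 and Ccl4 share a stretch of chromosome 11, from the start of Ccl5 at 83525778 to the end of Ccl4 at 83664683, where Ccl4 is on the plus strand and the others are on the minus strand. Cxcl16 is on chromosome 11 (chr11:70453983-70459984, minus strand) and Cxcl9 on chromosome 5 (chr5:92321347-92328079, minus strand). Cxcl16 overlaps Zmynd15 on the opposite strand, which held 464 UMIs in the gated cells, and Ccl6 overlaps E230016K23Rik on the opposite strand, whose counts were not analysed here. Whether the counting used strand is not stated, so that reads of either pair cannot be told apart where the genes overlap.

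The RefSeq promoter table of GRCm38.p6 held 6 of the 9 genes. The 250 bases before the start are shown for both CCR4 ligands and for the CCR1-binding ligands Ccl6 and Ccl9. These neighbours were chosen because Ccl22 and Ccl17 differed in their levels, whereas Ccl6 and Ccl9 shared a leading class but differed in macrophages. In Ccl22 and Ccl17 the capitals mark matches, on either strand, to the letters of NF-kB (GGG and CC with 5 bases between), GAS (TTCNNNGAA), ISRE (GAAA and GAAA with 2 bases between) and ETS (GGAAGT) elements. Ccl22 (chr8:94745434-94745683, plus strand) held 2 NF-kB matches and 1 ETS match, and Ccl17 (chr8:94810203-94810452, plus strand) held 1 GAS match. RefSeq starts Ccl22 inside the GENCODE gene, so that its window runs past the GENCODE start given above. In Ccl6 (chr11:83593088-83593337, minus strand) and Ccl9 (chr11:83578637-83578886, minus strand) the capitals mark the longest run of bases that both promoters share, and all are written 5′ to 3′.
Ccl22: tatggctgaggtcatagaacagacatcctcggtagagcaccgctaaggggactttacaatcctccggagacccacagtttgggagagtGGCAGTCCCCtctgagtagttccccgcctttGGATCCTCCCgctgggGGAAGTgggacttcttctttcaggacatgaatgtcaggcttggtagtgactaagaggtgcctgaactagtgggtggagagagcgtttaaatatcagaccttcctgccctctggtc
Ccl17: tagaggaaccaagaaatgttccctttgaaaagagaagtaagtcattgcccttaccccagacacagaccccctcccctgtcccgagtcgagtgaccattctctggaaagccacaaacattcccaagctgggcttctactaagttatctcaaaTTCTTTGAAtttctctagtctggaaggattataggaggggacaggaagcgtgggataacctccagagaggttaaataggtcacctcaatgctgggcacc
Ccl6: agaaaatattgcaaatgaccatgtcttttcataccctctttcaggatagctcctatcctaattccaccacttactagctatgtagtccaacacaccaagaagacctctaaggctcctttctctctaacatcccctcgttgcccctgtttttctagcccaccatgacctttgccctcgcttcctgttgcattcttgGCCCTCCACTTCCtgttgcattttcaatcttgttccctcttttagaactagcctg
Ccl9: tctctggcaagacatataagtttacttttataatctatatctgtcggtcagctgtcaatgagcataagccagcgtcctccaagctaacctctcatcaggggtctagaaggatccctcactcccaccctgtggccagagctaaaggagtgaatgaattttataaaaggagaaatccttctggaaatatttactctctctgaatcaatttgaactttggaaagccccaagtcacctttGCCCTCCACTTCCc

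The shared run GCCCTCCACTTCC has 13 bases and begins 55 bases before the start of Ccl6 and 14 bases before that of Ccl9. It was the longest of the runs shared in 15 pairs among the 6 promoters, the next longest having 10 bases and the shortest 6. Of 32851 promoters of the same length, 45.8% held the NF-kB letters, 7.02% the GAS letters, 2.98% the ISRE letters and 19.7% the ETS letters. The NF-kB letters were therefore common among promoters, and no ISRE match was found in any of the 6 windows. A match describes letters in this window and is not a site.

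Each ligand except Ccl17 had a class in which its level lay well above most others, and these classes differed from ligand to ligand. Ccl22 and Cxcl16 were highest in mature DCs, Cxcl9 in cDC1s, Ccl5, Ccl3 and Ccl4 in NK cells, and Ccl9 in CLEC10A cDC2s. Ccl6 was shared by CLEC10A cDC2s and macrophages. The plot of levels by class shows each sample.

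**Figure D1:**
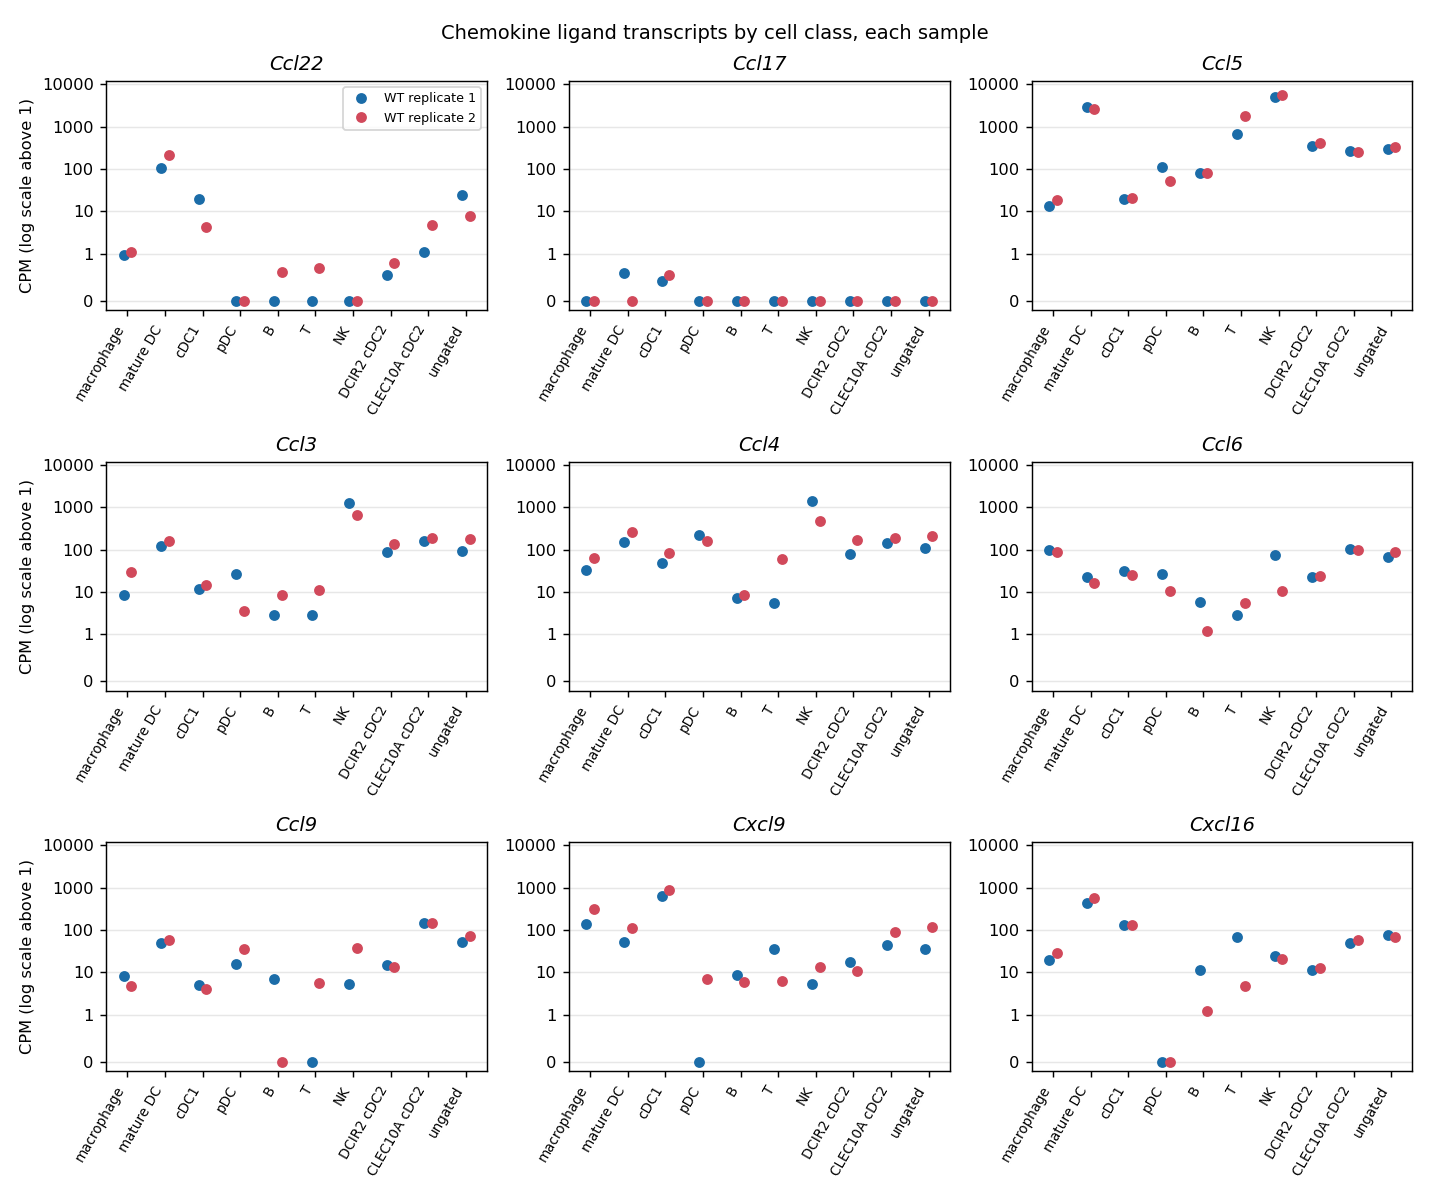
CPM of each ligand gene (vertical axis, linear from 0 to 1 and logarithmic above 1) in the 9 gated classes and the cells of no gate (horizontal axis), with 1 point per sample, WT replicate 1 in blue and WT replicate 2 in red. Ccl5 reached 5060 and 5705 CPM in NK cells and Cxcl9 641 and 859 CPM in cDC1s, whereas Ccl17 stayed under 1 CPM in every class.

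Ccl22 was mainly a gene of mature DCs, the DCs that carry CCR7 and move into T-cell zones. It measured 105 CPM in mature DCs of replicate 1 and 210 CPM in those of replicate 2 (mean 158 ± 74.3, SD, n = 2). In cDC1s it measured 20 and 4.2 CPM, and in CLEC10A cDC2s 1.08 and 4.87 CPM. The mature DC samples lay above all others, whereas the cDC1 and CLEC10A cDC2 samples overlapped. Ccl22 was carried by few cells, as 20.4% (95% exact binomial interval 14.2 to 27.8) and 21.4% (15.7 to 28.0) of mature DCs held a UMI, against 0 of 74 and 0.498% of B cells, where the gene is not expected. The median cell held 10059 and 10682 UMIs in mature DCs and 7617 and 6897 in B cells. Thinned to 3000 UMIs per cell, the mature DC shares were 15.0% and 14.1%. The intervals cover counting error alone.

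The share of all Ccl22 UMIs held by mature DCs differed between samples, at 25.7% in replicate 1 and 75.6% in replicate 2. In replicate 1, cDC1s held 47.9% and cells of no gate 24.0%, against 10.8% and 8.24% in replicate 2. In cDC1s, 3.89% and 3.10% of cells held a UMI, so the samples differed in the UMIs per positive cell more than in the share of positive cells. In replicate 1 the richest cDC1 held 68 Ccl22 UMIs, and 10 cDC1s held 10 or more, against 1 in replicate 2. No NK cell or pDC held a Ccl22 UMI, which for pDCs allows levels of up to 15.6 and 10.6 CPM at a limit of 3 counts per sample.

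Ccl17, the other CCR4 ligand and the neighbour of Ccl22, was close to absent at this depth. It gave 8 UMIs in 3 cells of replicate 1 and 9 UMIs in 3 cells of replicate 2. Of these, 7 and 9 UMIs were in cDC1s and 1 was in a mature DC. The cDC1s that held it, 2 and 3 cells, were all Langerin-, as were most cDC1s (660 of 797 and 556 of 710). In mature DCs no cell held UMIs of both genes, since only 1 held Ccl17. Ccl17 did not pass the filter on low counts and was tested in no comparison of the main fits.

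Ccl5 was highest in NK cells and next in mature DCs, and the levels did not overlap between the classes from NK cells down to CLEC10A cDC2s. It measured 5060 and 5705 CPM in NK cells (mean 5383 ± 456, SD, n = 2), where it is a known product of cytotoxic cells. In mature DCs it measured 2938 and 2637 CPM and in T cells 684 and 1760 CPM. DCIR2 cDC2s followed with 341 and 409 CPM and CLEC10A cDC2s with 269 and 259 CPM. The order from NK cells to CLEC10A cDC2s held in both samples. Macrophages, at 13.5 and 18.6 CPM, and cDC1s, at 19.3 and 21.1 CPM, were the lowest. Mature DCs outnumbered NK cells and held the largest share of all Ccl5 UMIs, 36.5% and 35.9%, against 14.1% and 10.1% in NK cells.

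Most NK cells carried Ccl5, as 92.3% (79.1 to 98.4) and 97.2% (85.5 to 99.9) held a UMI, with medians of 49 and 47 UMIs among those cells. In mature DCs 93.9% and 82.9% held a UMI, and the richest cell held 773 UMIs in replicate 1 and 429 in replicate 2. In cDC2s the gene was broad but low, with a UMI in 76.6% and 73.8% of DCIR2 cDC2s and a median of 3 and 4 UMIs in those. Among B cells, taken as a class without the gene, 8.11% and 3.98% held a UMI, at medians of 7617 and 6897 UMIs per cell against 7737 and 6980 in NK cells. The B-cell level of 82.4 and 79.7 CPM rested on few cells, and was 14.4 and 9.12 CPM without the richest cell of each sample. In T cells 24.0% and 31.0% of cells held a UMI, and 4 of 50 and 34 of 187 held 10 or more. The summed level of 6 NK markers was 5517 and 6483 CPM in NK cells, 458 and 1008 CPM in T cells and 101 and 98.0 CPM in mature DCs, and its part in the T-cell level was not tested.

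Ccl3 and Ccl4, which encode the inflammatory proteins MIP-1α and MIP-1β, were both highest in NK cells, and both differed widely between the samples there. Ccl3 measured 1274 and 666 CPM in NK cells (mean 970 ± 430, SD, n = 2). Ccl4 measured 1421 and 462 CPM in NK cells (mean 942 ± 679, SD, n = 2). The NK samples of each gene lay above all other classes, although the richest cell alone took the Ccl4 level of replicate 2 from 323 to 462 CPM. The same NK cells of replicate 1 led both genes, with 159 Ccl3 and 147 Ccl4 UMIs in a cell of 14555 UMIs, 114 and 125 in a cell of 4801, and 86 and 106 in a cell of 7334.

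Below NK cells the order of classes differed between both genes. Ccl3 measured 159 and 183 CPM in CLEC10A cDC2s, 120 and 157 CPM in mature DCs and 85.8 and 136 CPM in DCIR2 cDC2s, where the last 2 overlapped. Ccl4 measured 147 and 260 CPM in mature DCs, 224 and 155 CPM in pDCs and 145 and 186 CPM in CLEC10A cDC2s, and these overlapped. The pDC values rest on 43 and 44 UMIs in 14 and 20 cells. cDC1s held little Ccl3, at 11.7 and 14.9 CPM, and more Ccl4, at 48.6 and 83.6 CPM. Ccl4 was higher in replicate 2 than in replicate 1 in 7 of 9 classes, NK cells and pDCs being the exceptions.

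Both genes were found together more often than apart in NK cells. Among NK cells with Ccl3, 78.6% and 78.3% also held Ccl4, against 18.2% and 7.69% of those without Ccl3. In CLEC10A cDC2s the shares were 51.2% and 52.7% against 18.2% and 29.6%. After each cell was thinned to 3000 UMIs, they were 72.7% and 58.8% against 12.5% and 22.2% in NK cells, and 46.1% and 40% against 10.2% and 19.4% in CLEC10A cDC2s. The direction was the same at even depth in both classes, and in DCIR2 cDC2s (23.1% and 51.1% against 8.01% and 15.3%). In cDC1s it differed between the samples at even depth, with 45.5% and 9.09% against 7.02% and 13.2%. All these shares are given as a description, since cells of a sample are not replicates.

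Ccl6 and Ccl9, both ligands of CCR1, shared CLEC10A cDC2s as a leading class and differed in macrophages. Ccl6 measured 104 and 95.7 CPM in CLEC10A cDC2s (mean 99.6 ± 5.53, SD, n = 2) and 99.9 and 89.1 CPM in macrophages (94.5 ± 7.63). These classes overlapped. Ccl9 measured 146 and 149 CPM in CLEC10A cDC2s (mean 148 ± 2.33, SD, n = 2), 48.9 and 58.2 CPM in mature DCs and only 8.0 and 4.78 CPM in macrophages. In DCIR2 cDC2s Ccl6 measured 22.2 and 24.0 CPM and Ccl9 14.9 and 13.4 CPM. CLEC10A cDC2s held 54.1% and 47.1% of all Ccl9 UMIs. NK cells of replicate 1 gave 76.2 CPM of Ccl6, which fell to 27.2 CPM without the richest cell, and those of replicate 2 gave 10.2 CPM.

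The share of cells with Ccl6 differed between both leading classes as counted, and much less at even depth. A Ccl6 UMI was found in 72.6% and 67.7% of macrophages and in 41.9% and 37.0% of CLEC10A cDC2s, at median depths of 19570.5 and 19416 against 10812 and 10517.5 UMIs. After thinning to 3000 UMIs the shares were 23.5% (19.2 to 28.2) and 24.2% (17.8 to 31.6) in macrophages and 20.3% (16.9 to 24.2) and 20.5% (16.7 to 24.7) in CLEC10A cDC2s, with intervals that overlap. In B cells 4.05% and 0.995% held one before thinning. Among CLEC10A cDC2s with Ccl6, 67.1% and 61.0% also held Ccl9, against 17.8% and 22.5% of those without it. At even depth the shares were 51.0% and 44.7% against 20.4% and 20.6%, in the same direction. The summed level of 6 monocyte markers was 842 and 849 CPM in CLEC10A cDC2s and 504 and 515 CPM in DCIR2 cDC2s, and its part in the levels of Ccl6 and Ccl9 was not tested. This sum was not particular to CLEC10A cDC2s. It was 1030 and 930 CPM in pDCs, 820 and 869 CPM in NK cells and 503 and 918 CPM in T cells, and lower in the remaining classes.

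Small sets of cells of no gate held higher Ccl6 and Ccl9 levels than any class. Among the cells of no gate, 10 and 25 cells held at least 2 UMIs of each of 3 or more neutrophil markers, and 8 and 14 cells did so for monocyte markers, with no cell in both sets. Ccl6 reached 2405 and 1659 CPM in the cells with neutrophil markers and 963 and 776 CPM in those with monocyte markers. Ccl9 measured 675 and 827 CPM in the cells with monocyte markers and had 0 UMIs in those with neutrophil markers, which allows up to 81.1 and 28.4 CPM at 3 counts per sample. The cells with neutrophil markers were shallow, with medians of 2807 and 3559 UMIs. These sets were small, and the values are a description.

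**Figure D2:**
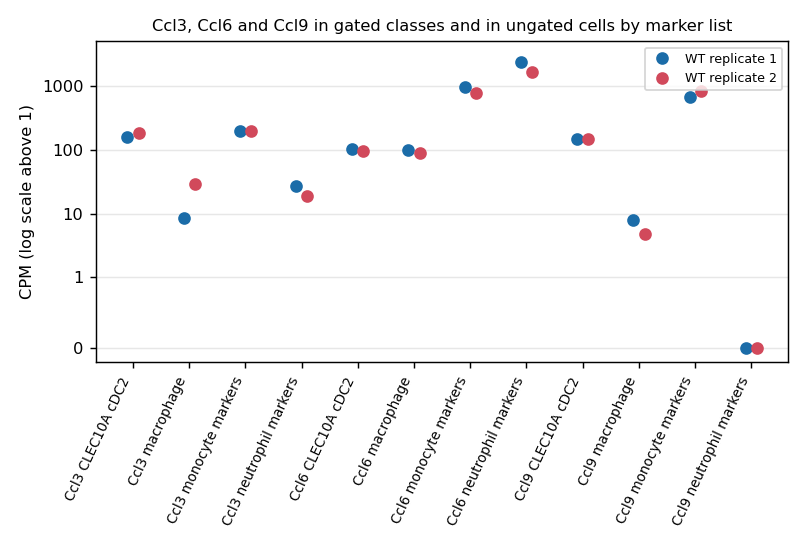
CPM of Ccl3, Ccl6 and Ccl9 (vertical axis, linear from 0 to 1 and logarithmic above 1) in CLEC10A cDC2s and macrophages and in the cells of no gate with monocyte or neutrophil markers (horizontal axis), 1 point per sample, WT replicate 1 in blue and WT replicate 2 in red. Ccl6 is highest in cells with neutrophil markers at 2405 and 1659 CPM, where Ccl9 is at 0, and Ccl9 is highest in cells with monocyte markers at 675 and 827 CPM.

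Cxcl9 was a gene of cDC1s, the cells that cross-present antigen to CD8 T cells. It measured 641 and 859 CPM in cDC1s (mean 750 ± 154, SD, n = 2), 137 and 310 CPM in macrophages and 53.0 and 109 CPM in mature DCs. cDC1s lay above all others in both samples and held 86.1% and 84.0% of all Cxcl9 UMIs. A Cxcl9 UMI was found in 71.5% (68.2 to 74.6) and 75.9% (72.6 to 79.0) of cDC1s at median depths of 20185 and 21782.5 UMIs, against 6.76% and 3.98% of B cells at 7617 and 6897. In DCIR2 cDC2s it measured 17.8 and 11 CPM. The macrophage level came from few cells, as 16.2% and 27.3% held a UMI and the richest 5% held 90.3% and 86.2% of the UMIs.

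Cxcl16 was highest in mature DCs and next in cDC1s. It measured 432 and 555 CPM in mature DCs (mean 493 ± 86.9, SD, n = 2), and 131 CPM in cDC1s of each sample. In CLEC10A cDC2s it measured 50.2 and 57.6 CPM, in DCIR2 cDC2s 11.1 and 13 CPM and in macrophages 19.3 and 28.1 CPM. Mature DCs and cDC1s did not overlap with each other or with the next class. Since cDC1s were many, they held 54.9% and 49.3% of all Cxcl16 UMIs, against 18.5% and 29.2% in mature DCs. T cells of replicate 1 gave 67.0 CPM, which fell to 5.82 CPM without 1 cell, and T cells of replicate 2 gave 4.87 CPM. No Cxcl16 UMI was found in the pDCs of either sample.

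Each comparison of classes was fitted with the edgeR quasi-likelihood test on the UMI sums per sample and class, with p-values adjusted by the Benjamini-Hochberg method over all 12230 genes tested. Resident cDCs stand for the mean of cDC1s, DCIR2 cDC2s and CLEC10A cDC2s on the log2 scale, so a ligand can lie above this mean and still below 1 of these classes. The threshold of the adjusted p was 0.05. The differences below are log2 fold changes with their standard errors. Of the 9 ligands, 8 passed the filter on low counts, and the counts over them describe these genes beside the share of all genes that passed.

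Mature DCs were compared with resident cDCs to ask which ligands change with the mature state. Of 8 ligands tested, 5 passed as higher and 1 as lower, while 34.0% of all genes passed, 16.8% higher and 17.2% lower. Ccl22 was higher by 5.79 ± 0.42 (adjusted p = 6.79e-09, edgeR), Ccl5 by 4.47 ± 0.19 (5.52e-13) and Cxcl16 by 3.5 ± 0.23 (5.88e-10). Ccl9 was higher by 1.36 ± 0.25 and Ccl3 by 1.15 ± 0.28, although CLEC10A cDC2s alone exceeded mature DCs in both. Ccl6 fell by 1.06 on the log2 scale (SE 0.28, edgeR adjusted p = 0.00637), a call lost when cells of a single gate alone were used (adjusted p = 0.142) and with doubled gate thresholds (0.161). Its level in mature DCs overlapped with that in DCIR2 cDC2s. Ccl4 differed by 0.91 ± 0.35 and missed the threshold (edgeR adjusted p = 0.0545), and passed with the sample as a replicate block (0.0218). Cxcl9 differed by -0.12 ± 0.34 (edgeR adjusted p = 0.823), its level of 53.0 and 109 CPM lying between those of cDC1s and DCIR2 cDC2s.

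cDC1s were compared with the mean of both cDC2 classes. In cDC1s 3 of the 8 ligands were higher and 4 lower, while 36.9% of all genes passed, 18.7% higher and 18.2% lower. Cxcl9 was higher by 4.72 ± 0.31 (edgeR adjusted p = 2.11e-10), Ccl22 by 3.24 ± 0.59 (2.79e-04) and Cxcl16 by 2.50 ± 0.26 (2.46e-07). Ccl22 rested on replicate 1, as the difference was 1.27 without replicate 1 and 4.88 without replicate 2. Ccl5 fell by 3.82, Ccl3 by 3.23 and Ccl9 by 3.22 on the log2 scale (SE 0.27, 0.33 and 0.28), with edgeR adjusted p = 9.09e-10, 1.41e-07 and 1.77e-08. Ccl6 fell by 0.65 (SE 0.21, edgeR adjusted p = 0.0184), and by 0.43 without replicate 2. It was not called with DESeq2 (adjusted p = 0.172) or among cells of a single gate (0.343). In cDC1s Ccl6, at 30.5 and 25.0 CPM, lay below CLEC10A cDC2s (104 and 95.7) but not below DCIR2 cDC2s (22.2 and 24.0). Ccl4 differed by -0.96 ± 0.38 (edgeR adjusted p = 0.0543), and passed with the replicate block (0.0125).

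Within cDC2s, the CLEC10A class was compared with the DCIR2 class. In CLEC10A cDC2s 4 of the 8 ligands were higher and 0 lower, while 5.61% of all genes passed, 3.81% higher and 1.80% lower. Ccl9 was higher by 3.43 ± 0.29 (edgeR adjusted p = 2.98e-07), Cxcl9 by 2.27 ± 0.42 (0.00215), Cxcl16 by 2.22 ± 0.37 (9.12e-04) and Ccl6 by 2.17 ± 0.25 (1.68e-05). For Cxcl9 the difference was 3.03 without replicate 1 and 1.39 without replicate 2, and Cxcl16 was not called with DESeq2 (adjusted p = 0.207). Ccl5 differed by -0.45 ± 0.25, Ccl3 by 0.68 ± 0.32, Ccl4 by 0.49 ± 0.43 and Ccl22 by 2.11 ± 1.18, and none of these passed. Up to 210 and 159 of the DCIR2 cDC2s also passed the other gate, which lies within the DCIR2 side of these values.

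Macrophages were compared with resident cDCs. In macrophages 2 of the 8 ligands were higher and 5 lower, while 55.1% of all genes passed, 28.8% higher and 26.3% lower. Ccl6 was higher by 1.33 ± 0.18 (edgeR adjusted p = 3.38e-06) and Cxcl9 by 1.37 ± 0.28 (3.27e-04), Cxcl9 lying above both cDC2 classes and below cDC1s, and being higher by 0.81 without replicate 2. Ccl5 fell by 2.94 and Ccl3 by 1.85 on the log2 scale (SE 0.29 and 0.35, edgeR adjusted p = 4.16e-08 and 1.66e-04), the latter by 2.63 without replicate 2. Ccl9 fell by 1.55 (edgeR adjusted p = 2.93e-04), Ccl4 by 1.18 (0.0185) and Cxcl16 by 0.85 (0.0245). The last 2 were not called with DESeq2 (adjusted p = 0.160 and 0.495), and Ccl9 was not called with doubled gate thresholds (0.0964). Ccl22 measured 0.965 and 1.1 CPM in macrophages and did not pass (edgeR adjusted p = 0.275).

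pDCs held few cells, and 2 of 8 ligands were lower and 0 higher than in resident cDCs, while 11.1% of all genes passed, 4.85% higher and 6.28% lower. Cxcl9 had 0 and 2 UMIs in pDCs, and its pooled level in resident cDCs was 107 times that in pDCs, with a counting interval from 29.6 to 884. Cxcl16 had 0 UMIs in pDCs, so that it was at least 14.0-fold lower there at a limit of 3 counts over both samples. Their edgeR adjusted p was 0.0238 and 0.0334, and neither passed among the pDCs of a single gate (0.130 and 0.295). Cxcl9 also failed with doubled gate thresholds (0.104) and Cxcl16 with library sizes alone as the scaling (0.0532). The other 6 ligands did not pass.

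NK cells were compared with T cells, the other class with much Ccl5 among the lymphocytes. In NK cells 4 of the 8 ligands were higher and 0 lower, while 8.79% of all genes passed, 4.92% higher and 3.87% lower. Ccl3 was higher by 6.59 ± 0.58 (edgeR adjusted p = 2.49e-07), from 2.79 and 11.1 CPM in T cells. Ccl4 was higher by 4.29 ± 0.61 (7.05e-05), from 5.59 and 59.1 CPM in T cells, and the difference was 2.83 without replicate 1 and 7.96 without replicate 2. Ccl5 was higher by 1.98 ± 0.26 (3.83e-05) and by 2.86 without replicate 2, and Ccl3 by 5.76 without replicate 1 and 8.79 without replicate 2. Ccl6 was higher by 3.11 ± 0.70 (0.00683), by 0.74 without replicate 1, whose 29 UMIs were in 2 NK cells, and by 4.73 without replicate 2. It was not called with doubled gate thresholds (adjusted p = 0.0640). The T side of these values held NK markers at 458 and 1008 CPM.

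**Figure D3:**
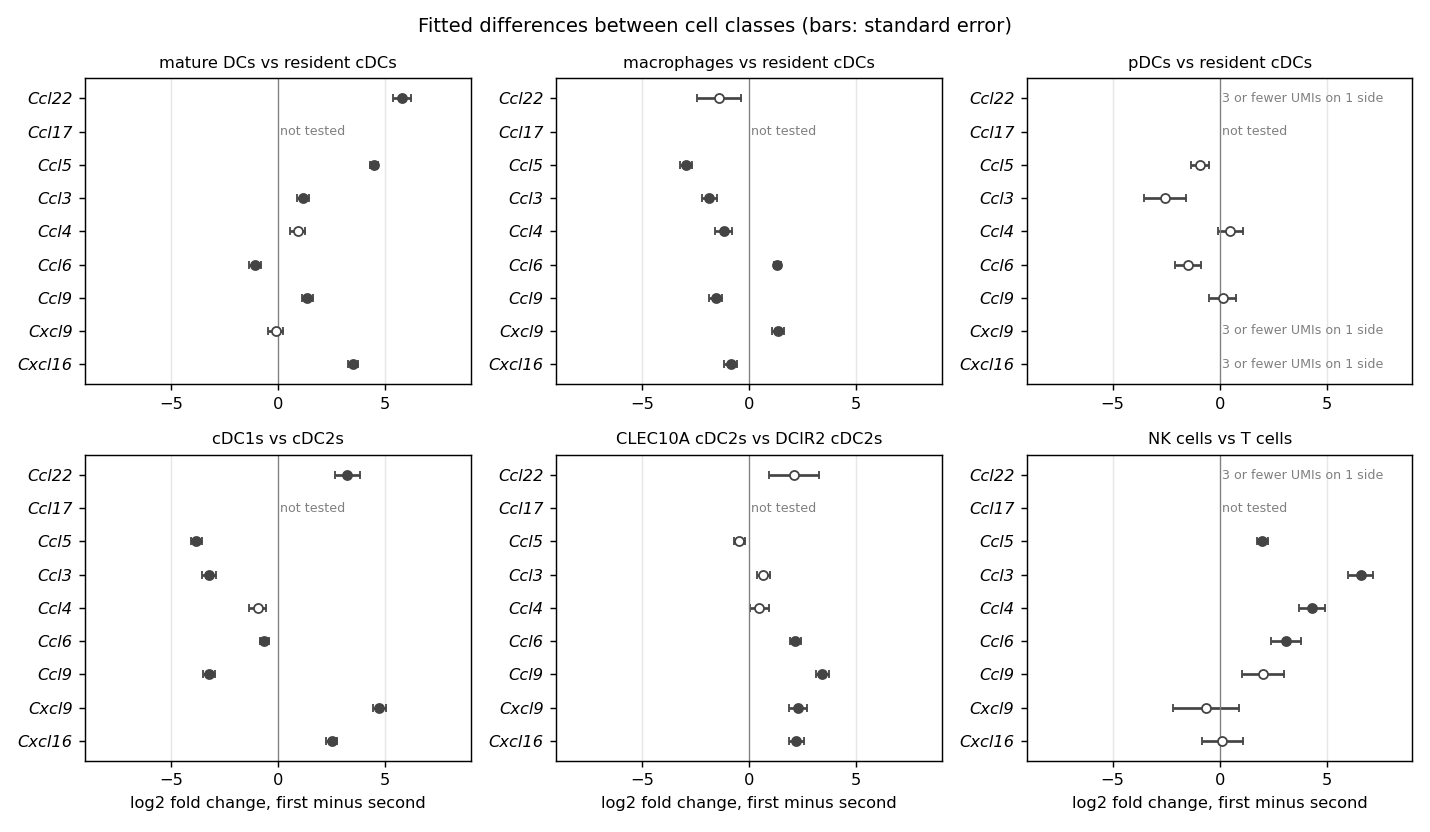
Log2 fold change of each ligand gene, first class minus second (horizontal axis), in the 6 comparisons of classes, with bars for the standard error, filled points for an edgeR adjusted p under 0.05 and open points otherwise. Genes with 3 or fewer UMIs on 1 side or under the filter on low counts are written as such. Ccl22, Ccl5 and Cxcl16 stand at 5.79, 4.47 and 3.5 in mature DCs against resident cDCs.

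Subgroups of 3 classes were set by a gene that is no ligand of the list. Mature DCs were split by a UMI of Il12b, the p40 subunit of IL-12 (25 and 44 positive cells), cDC1s by a UMI of Cd207, which encodes Langerin (137 and 154), and macrophages by a UMI of Siglec1 (129 and 73). Siglec1+ macrophages are called MMMs, for marginal metallophilic macrophages, after the methods, which set MMMs by Siglec1 alone without the macrophage gate used here. The levels do not bear the name out. The macrophage class as a whole was highest in the red pulp genes Hmox1, Spic and Slc40a1 (mean 4946, 1842 and 5688 CPM), and beside Siglec1 itself only 1 of 11475 genes was higher in its Siglec1+ cells than in the others. Positive cells were deeper than negative ones, with medians of 11724 and 13200.5 against 9613.5 and 10411 UMIs for Il12b, 23588 and 26746 against 19206.5 and 20588 for Cd207, and 22087 and 22634 against 17724 and 17986.5 for Siglec1. The part of depth in the differences below was not tested. The fits of these subgroups covered 11475 genes.

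Il12b+ mature DCs held more Ccl22, Ccl5 and Cxcl16 than Il12b- ones. Ccl22 measured 344 and 501 CPM in Il12b+ cells and 54.3 and 92.5 CPM in Il12b- cells. Ccl5 measured 8320 and 4551 CPM against 1787 and 1859 CPM, and Cxcl16 980 and 1016 CPM against 315 and 367 CPM. The groups did not overlap in any of these genes. Of 8 ligands tested, 4 were higher and 0 lower, while 17.4% of all genes passed, 9.43% higher and 7.99% lower. Ccl22 was higher by 2.80 ± 0.58 (edgeR adjusted p = 0.00390), Ccl5 by 2.03 ± 0.27 (1.26e-04), Cxcl16 by 1.79 ± 0.20 (2.89e-05) and Ccl6 by 1.27 ± 0.36 (0.0262). Ccl6 measured 43.5 and 24.4 CPM against 17.9 and 13 CPM, but 12 of the 13 UMIs of Il12b+ cells in replicate 1 were in 1 cell, without which the level was 3.51 CPM. It was not called in 5 of the alternatives, with adjusted p from 0.0668 to 0.834. Cxcl9 measured 30.1 and 249 CPM in Il12b+ cells and 57.9 and 51.5 CPM in Il12b- cells, in opposite directions between the samples (-0.79 without replicate 2, 2.59 without replicate 1), and did not pass (1.85 ± 0.70, edgeR adjusted p = 0.0878). Ccl9, at 20.1 and 41.2 against 55.1 and 65.2 CPM, and Ccl3 and Ccl4 did not pass.

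A Ccl22 UMI was found in 56.0% and 52.3% of Il12b+ mature DCs and in 13.1% and 11.9% of Il12b- ones. At 3000 UMIs per cell the shares were 40% and 43.2% against 9.84% and 5.0%. Cxcl16 and Ccl22 also overlapped in single mature DCs. Of those with Ccl22, 86.7% and 92.5% held Cxcl16, against 57.3% and 61.2% of those without it, and at even depth 68.2% and 92.3% against 38.4% and 48.1%. For Ccl5 and Ccl22 the order differed between the samples, as 18.8% and 21.9% of cells with Ccl5 held Ccl22, against 44.4% and 18.8% of those without it. Few cells lacked Ccl5 in replicate 1, where 4 of them held Ccl22 and 5 did not. At even depth the shares were 14.2% and 16.3% against 17.6% and 9.09%.

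Langerin+ cDC1s were compared with Langerin- cDC1s. Only Ccl9 of the 8 ligands passed, as lower, while 0.261% of all genes passed, 0.0261% higher and 0.235% lower. Ccl9 measured 0.294 and 0.237 CPM in Langerin+ cells, from 1 UMI in each sample, and 6.09 and 5.26 CPM in Langerin- cells. Its pooled level was 21.7 times higher in Langerin- cells, with a counting interval from 5.90 to 181 (edgeR adjusted p = 0.0139), and it was not called with cells of a single gate (adjusted p = 0.932), doubled gate thresholds (0.447) or 2 UMIs as the limit (0.0719). Cxcl9 measured 613 and 1101 CPM in Langerin+ cells and 648 and 774 CPM in Langerin- cells, and these overlapped (0.35 ± 0.50, edgeR adjusted p = 1.00). Cxcl16 measured 178 and 135 CPM against 118 and 129 CPM and did not overlap, but the difference of 0.41 ± 0.19 did not pass (edgeR adjusted p = 0.929). Ccl22 measured 36.1 and 4.97 CPM against 15.9 and 3.93 CPM.

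MMMs, here the Siglec1+ cells of the macrophage gate, and Langerin+ cDC1s differed in 6 of 8 ligands tested, 3 higher and 3 lower in MMMs. Of all genes 52.0% passed, 26.6% higher and 25.4% lower. The study examined signals between MMMs and Langerin+ cDC1s, but its MMMs were set without this gate. Ccl6 was higher in MMMs by 1.84 ± 0.19 (edgeR adjusted p = 8.76e-07), at 96.2 and 87.1 against 25.9 and 22.3 CPM. Ccl9 passed as higher in MMMs, at 11.9 and 7.21 CPM, with a pooled ratio of 38.5 and a counting interval from 10.1 to 327 over the 2 UMIs of Langerin+ cDC1s. Ccl3 was higher by 1.92 ± 0.69 (0.0298), by 0.07 without replicate 2 and by 2.99 without replicate 1, and was not called with the filter on cells from the methods (adjusted p = 0.636). Cxcl16 fell by 4.01 on the log2 scale in MMMs (SE 0.28, edgeR adjusted p = 1.68e-08), at 6.67 and 15.5 against 178 and 135 CPM. Cxcl9 fell by 2.39 (SE 0.54, 0.00180), at 176 and 174 against 613 and 1101 CPM. Ccl22 fell by 4.24 (SE 1.33, 0.0149), by 1.76 without replicate 1, and was not called where 2 UMIs set the subgroups (adjusted p = 0.0675).

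MMMs and Siglec1- macrophages differed in none of the 8 ligands tested with edgeR, while 0.157% of all genes passed, 0.00871% higher and 0.148% lower. An unadjusted p under 0.05 was found for 2 of them, Cxcl16 and Ccl9, and for 525 of all 11475 genes. Cxcl16 measured 6.67 and 15.5 CPM in MMMs and 27.5 and 41.1 CPM in Siglec1- macrophages, which did not overlap (-1.67 ± 0.32, edgeR adjusted p = 0.0783). It passed with DESeq2 (adjusted p = 2.54e-04) and with the replicate block (0.0431). Ccl9 measured 11.9 and 7.21 CPM against 5.45 and 2.28 CPM (1.16 ± 0.44, edgeR adjusted p = 0.876). Ccl6, at 96.2 and 87.1 against 102 and 91.2 CPM, differed by -0.09 ± 0.17.

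**Figure D4:**
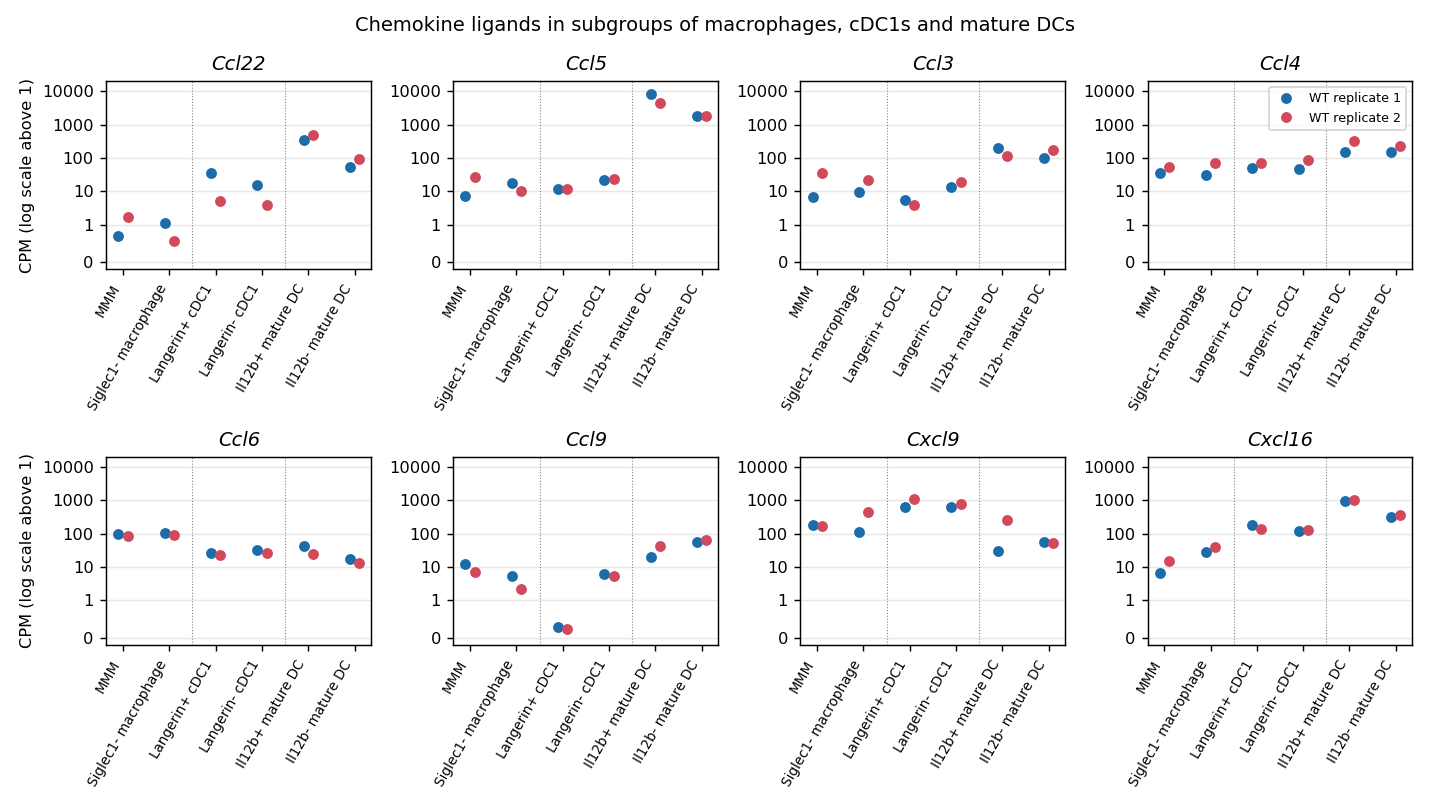
CPM of the 8 ligand genes other than Ccl17 (vertical axis, linear from 0 to 1 and logarithmic above 1) in MMMs and Siglec1- macrophages, Langerin+ and Langerin- cDC1s, and Il12b+ and Il12b- mature DCs (horizontal axis), 1 point per sample, WT replicate 1 in blue and WT replicate 2 in red. Il12b+ mature DCs hold more Ccl22 (344 and 501 against 54.3 and 92.5 CPM) and more Cxcl16 (980 and 1016 against 315 and 367 CPM) than Il12b- ones.

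The ligands differed in how evenly they were spread over the cells of their leading class. In mature DCs the richest 5% of cells held 74.3% and 79.2% of the Ccl22 UMIs, with 111 UMIs in the richest cell of replicate 2, and 34.2% and 25.3% of the Cxcl16 UMIs. In NK cells the richest 5%, which were 2 cells in each sample, held 19.7% and 14.8% of the Ccl5 UMIs, 56.3% and 37.2% of the Ccl3 UMIs and 50.3% and 47.1% of the Ccl4 UMIs. By this share, with each of the 8 ligands in its leading class, Ccl5 was the most even and Ccl22 the least even in both samples. At the richest 1% the order differed, as 1 NK cell of replicate 1 held 32.8% of the Ccl3 UMIs while the richest 1% of mature DCs held 27.4% of the Ccl22 UMIs. In cDC1s the richest 5% held 47.1% and 44.3% of the Cxcl9 UMIs, and 221 and 273 cells held 10 or more. In CLEC10A cDC2s the richest 5% held 33.4% and 32.4% of the Ccl9 UMIs and 34.1% and 36.5% of the Ccl6 UMIs.

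**Figure D5:**
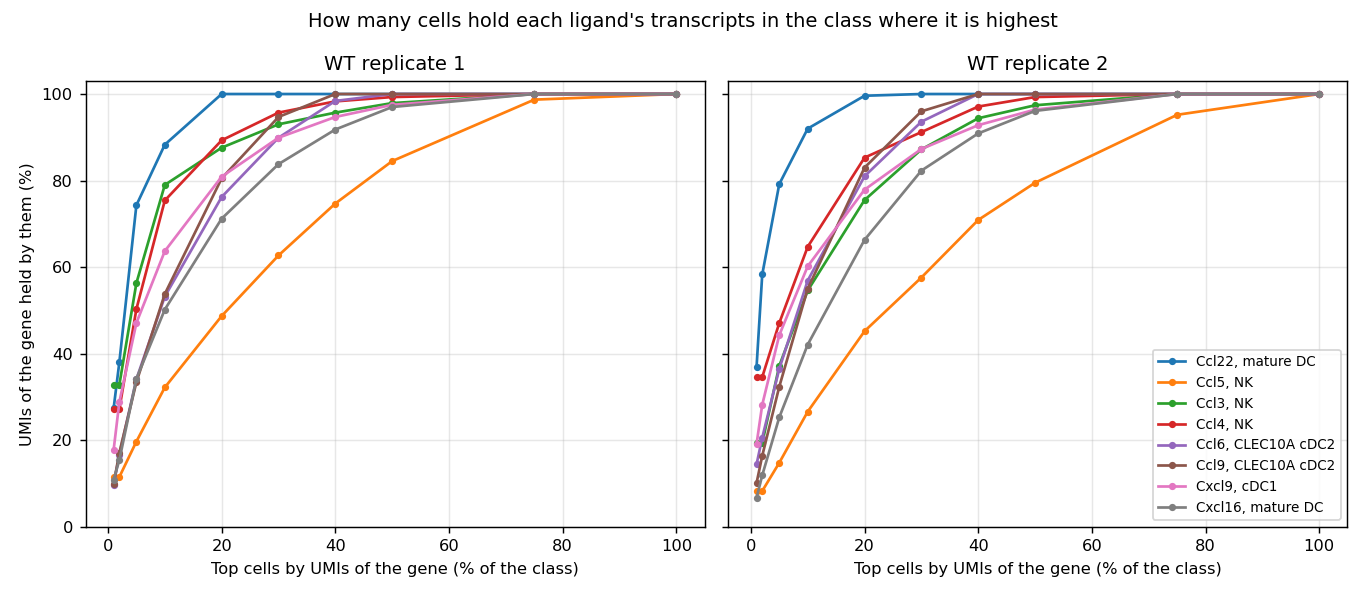
Share of a ligand's UMIs (vertical axis, percent) held by the cells richest in it (horizontal axis, percent of the class) in the class with its highest mean level, 1 line per gene and 1 panel per sample. At the top 5% of cells the line of Ccl22 in mature DCs is the highest, with 74.3% and 79.2% of UMIs, and the line of Ccl5 in NK cells is the lowest, with 19.7% and 14.8%.

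Among the receptors of these ligands, Ccr3 was highest in macrophages, Cxcr3 in NK cells, and Cxcr6 and Ccr4 in T cells by their mean levels. Ccr3 measured 1703 and 1304 CPM in macrophages and at most 6.26 CPM in any other gated class, and was higher than in resident cDCs by 9.09 ± 0.14 (edgeR adjusted p = 6.12e-19). Cxcr3, the receptor of CXCL9, measured 55.2 and 91.7 CPM in NK cells, 27.9 and 72.4 CPM in T cells and 29.7 and 29.2 CPM in cDC1s. It was higher in cDC1s than in cDC2s by 3.78 ± 0.36 (edgeR adjusted p = 4.31e-08). Cxcr6, the receptor of CXCL16, measured 27.9 and 123 CPM in T cells and 18.4 and 67.9 CPM in NK cells, and at most 2.65 CPM elsewhere. Ccr4, the receptor of CCL22, measured 5.59 and 10.4 CPM in T cells, from 2 and 15 UMIs.

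In mature DCs 2 receptors were higher than in resident cDCs and 0 lower, namely Ackr1 (2.17 ± 0.32) and Ackr2, which bind chemokines without the usual signalling. Ackr2 rested on 1 and 11 UMIs in 0.680% and 1.07% of mature DCs against 3 UMIs over all resident cDCs, and B cells held more, at 29.8 and 18.1 CPM in 12.2% and 7.96% of cells. Ccr1 was higher in CLEC10A cDC2s, at 11.2 and 12.3 CPM, than in DCIR2 cDC2s, at 1.08 and 0.972 CPM (3.52 ± 0.65, edgeR adjusted p = 0.00207). It was also higher in pDCs than in resident cDCs, at 72.8 and 74.0 CPM (4.77 ± 0.58). In cDC1s 1 receptor was higher than in cDC2s and 3 were lower, the largest being Ackr1, which fell by 4.75 (SE 0.42). In macrophages Ackr1 fell by 1.47 against resident cDCs. Between MMMs and Langerin+ cDC1s Ccr3 was higher in MMMs by 10.14 ± 0.31, and Cxcr3 fell by 2.94.

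Of 28 other chemokine ligand genes on a list, 5 passed the filter on low counts in the fit of classes and 7 in that of subgroups. In macrophages 4 of 5 were higher than in resident cDCs, led by the eosinophil attractant Ccl24 (56.0 and 43.3 CPM, 8.64 ± 0.39) and the neutrophil attractant Cxcl2 (22.1 and 46.1 CPM, 5.93 ± 0.76). In cDC1s 2 of 5 passed as higher than in cDC2s, Cxcl10 (1.69 ± 0.49), which shares the receptor of Cxcl9, and Cxcl2 (edgeR adjusted p = 0.0496). Cxcl2 measured 5.15 and 0.185 CPM in cDC1s against 0.360 and 2.01 CPM in cDC2s, in opposite directions between the samples, so that its call rested on replicate 1. Cxcl10 measured 82.7 and 257 CPM in macrophages and 27.4 and 65.6 CPM in cDC1s, so that these CXCR3 ligands had their highest levels in different classes. In NK cells 1 of 5 was higher than in T cells, Xcl1, which attracts cDC1s, at 893 and 730 against 61.5 and 197 CPM (2.33 ± 0.36, edgeR adjusted p = 2.04e-04). In MMMs 4 of 7 were higher than in Langerin+ cDC1s, with Ccl24 at 63.2 and 48.8 CPM against 0 UMIs and Cxcl1 at 5.97 and 20 CPM against 0 UMIs. None of these other ligands passed in mature DCs, in pDCs or within cDC2s with edgeR.

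The proteases that release CXCL16 were found in every gated class, at 59.1 to 173 CPM for Adam10 and 41.9 to 176 CPM for Adam17. Adam10 passed in 4 of the 10 comparisons. It measured 105 and 111 CPM in mature DCs (0.42 ± 0.12 above resident cDCs, edgeR adjusted p = 0.0119) and 139 and 126 CPM in macrophages (0.78 ± 0.11, 3.51e-06). It fell by 0.44 (SE 0.12) in cDC1s, its lowest class at 65.9 and 59.1 CPM, against cDC2s and was higher by 1.00 ± 0.21 in MMMs than in Langerin+ cDC1s. Adam17 measured 176 and 135 CPM in mature DCs and passed in 1 comparison, that of Il12b+ with Il12b- mature DCs.

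The genes whose levels over the 18 class sums were most like those of each ligand were ranked by Pearson's r of log2(CPM + 10) among 5772 genes with at least 50 CPM in both samples of some class. The sums share 2 libraries, and the values describe these classes. For Ccl22 these were Tm4sf5 (0.978), Crispld2 (0.951) and Zmynd15 (0.95), the last being the gene that overlaps Cxcl16. For Cxcl16 they were Il12b (0.901), Mab21l3 (0.897) and Apol7c (0.896), and for Cxcl9 Slc8b1 (0.946), Fnip2 (0.937) and Ppt1 (0.910). Ccl3 was the third gene in likeness to Ccl4 (0.842), the only case in which another ligand of the list was among the first 3. The highest values were 0.915 for Ccl3 (Klri2), 0.901 for Ccl6 (Igsf6), 0.895 for Ccl5 (Peak1) and 0.849 for Ccl9 (Nfe2l2).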

How the data were processed

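The authors deposited UMI counts per cell and gene of 2 samples from 1 BD Rhapsody run, made with the BD Rhapsody WTA Analysis Pipeline (version 1.12.1) on GRCm38 with GENCODE vM19, without normalization, and all values were whole numbers. The submitters' processing notes also name R 4.2.3 and Seurat 4.3.0.1. The tables shared 0 cell barcodes. Depth was 46953398 and 43137746 UMIs.

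All deposited cells were used, and the filter of the methods (mean ± 3 median absolute deviations) was an alternative. No doublet caller was run, and cells that pass 2 or more gates were left out in an alternative. The members, classes and lists were chosen with earlier results of these data known. Named genes were the 9 ligands, the listed genes past the threshold with the 2 largest changes in a comparison, and the 3 genes most like each ligand. Listed receptors given by their levels alone and other genes outside this rule were chosen after their values were seen. Results of 1 listed gene are not reported here.

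UMIs were summed per sample and class (18 sums) or subgroup (12 sums), and each set was fitted together with edgeR 4.0.16 (TMM, filterByExpr, quasi-likelihood test, Benjamini-Hochberg adjustment) in R 4.3.3. DESeq2 1.42.0 was an alternative. Positions of genes were taken from GENCODE M21. Cells were classed and tables built in Python 3.11.15 with pandas 2.3.3, numpy 2.4.6 and scipy 1.17.1, and figures drawn with matplotlib 3.10.9. The replicates of a class differed beyond sampling noise (chi-square per degree of freedom 2.30 to 5.64). Classes of a sample come from the same cells, and their deviations from the class means correlated by -0.0221 to 0.228 (median 0.0461, 36 pairs of classes), so the sample served as a replicate block in an alternative. On simulated data 86 to 100 of 100 genes changed 4-fold were recovered in the 10 comparisons, and 53 to 100 of 100 changed 2-fold. There, 7 to 16 unchanged genes were called per comparison. Genes of low level were left unchanged and all classes were drawn from a shared profile, so these counts do not cover ligands with few UMIs.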

Additional observations from a re-analysis of the deposited data

Results flagged for a closer look

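Cells of no gate, 770 and 701 cells that entered no comparison, held UMIs of 8 ligands above the limit that a count of 0 allows. Their mean levels over both samples were 16.4 CPM for Ccl22, 310 CPM for Ccl5, 136 CPM for Ccl3, 157 CPM for Ccl4, 77.2 CPM for Ccl6, 61.3 CPM for Ccl9, 77.7 CPM for Cxcl9 and 72.9 CPM for Cxcl16. The cell richest in Ccl22 in replicate 1, with 70 UMIs, was among them. In replicate 2 a cell with basophil markers held 206 Ccl3 UMIs, 17.3% of all Ccl3 UMIs of the cells of no gate in that sample. Cells with neutrophil markers held 20.2% and 30.1% of the Ccl6 UMIs of these cells, and cells with monocyte markers 22.0% and 20.8%.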

How the results depend on the processing

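Other settings were followed for 45 fold changes of the ligands, the 41 that were called and those that narrowly missed the threshold. This choice made a change of sign unlikely, and calls gained by weaker fold changes lie outside these counts. Of 372 fold changes under other settings, 333 kept their direction and side of the threshold, 23 lost the call, 16 gained it and 0 changed sign. A value without an adjusted p counted as kept. Leaving out a replicate leaves no residual degrees of freedom, so these are values with no test. Among 90 of them 1 changed sign, Cxcl9 in Il12b+ against Il12b- mature DCs, at -0.79 without replicate 2 and 2.59 without replicate 1. The replicate block changed only the calls of Ccl4 and Cxcl16 given above, and with it 1 ligand passed between MMMs and Siglec1- macrophages. There, 1 passed with DESeq2 and 2 with no low-count filter, against 0. Between pDCs and resident cDCs 1 passed with library size only, 5 with no low-count filter, 5 in a fit of the compared classes only and 0 among cells of a single gate, against 2. Between Langerin+ and Langerin- cDC1s 4 passed with no low-count filter, 2 in the fit of the compared classes, and 0 with a single gate, doubled gate thresholds or 2 UMIs as the limit, against 1. Between both cDC2 classes 7 passed with no low-count filter, against 4. Between cDC1s and cDC2s 6 to 9 passed over the settings, against 7, and a count of 9 includes Ccl17. The cause of these shifts was not tested. Without the filter, every gene with a UMI in the summed cells entered the fit, apart from the splitting genes in the fit of subgroups.

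Thinned to 3000 UMIs, the mean share of cells with a UMI was 14.6% for Ccl22 and 48.6% for Cxcl16 in mature DCs, 53.2% for Ccl3 and 43.7% for Ccl4 in NK cells, 20.4% for Ccl6 and 26.1% for Ccl9 in CLEC10A cDC2s and 49.9% for Cxcl9 in cDC1s. The mean Ccl5 level of NK cells was 5936 CPM with a single gate, 6029 with doubled gates and 6591 as a mean over cells. That of Ccl9 in CLEC10A cDC2s was 152 with doubled gates, 159 as a mean over cells and 145 without the richest cell, a setting chosen after seeing the data. Cxcl16 in mature DCs was 635 with doubled gates.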
